A study of Rattus norvegicus with 3 samples.

Results

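Basement membrane genes were read on 3 whole rat genome arrays, 1 for each cell type, in cultures of F344 rat cells. Of 10 genes chosen for this sheet-like matrix, 5 had a probe whose RefSeq accession named them, among 13301 named genes on the array. These were the laminin chains Lamb1, Lamb2 and Lamc1, the collagen IV chain Col4a1 and the linker Nid2, with 7 probes in all. The laminin chains Lama4 and Lama5, the collagen IV chain Col4a2, the linker Nid1 and perlecan (Hspg2) had no probe named in this way and were not analysed here. The rule that names the members uses gene names and no intensity, although earlier results of these data were known when it was set.

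The osteosarcoma line COS1NR and the malignant fibrous histiocytoma (MFH) line MFH1NR both came from tumors induced with 4-HAQO in F344 rats, and per the study's methods both lines carry a p53 mutation. Mesenchymal stem cells (MSCs) were taken fresh from femur marrow of F344 rats by monolayer culture on plastic, and per the study were not sorted by surface markers. All cells were cultured in the same basal medium, with more serum for MSCs than for the sarcoma lines. Each line is a single line with 1 array, so there were no replicates and no difference could be tested. Ages of the animals were not given in the sources used here.

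Basement membranes are thin matrix sheets that underlie epithelia and endothelia and wrap muscle, fat and nerve cells. Laminins, which are trimers of an alpha, a beta and a gamma chain, polymerize at the cell surface, where integrins and other receptors hold them. Collagen IV forms a second, covalently crosslinked network, and nidogens and perlecan join the networks. Fibroblasts, smooth muscle cells and endothelial cells all make these proteins, and in marrow such matrix surrounds the sinusoids and fat cells.

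Col4a1 and Col4a2 lie head to head and are transcribed away from each other, and the bases between their start sites form a promoter for both. That stretch is shown because Col4a1 was measured here and its partner Col4a2 had no named probe. For comparison, the same length of sequence just before the start of Lamc1, the gamma chain of most laminins, follows. Both are taken from RefSeq promoters of the GRCr8 build and are written 5′ to 3′ on the strand of the gene named. Capitals mark the GC box GGGCGG, searched on both strands together with CCAAT and CCCTCCCC.
Col4a1, chr16:84885521-84885596, plus strand: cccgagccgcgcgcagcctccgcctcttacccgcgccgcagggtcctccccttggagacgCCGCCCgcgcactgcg
Lamc1, chr13:68051987-68052062, minus strand: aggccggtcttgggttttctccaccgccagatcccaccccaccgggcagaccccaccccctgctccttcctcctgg

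The 76 bases between the collagen IV genes held 1 GC box, read on the strand of Col4a2, and neither of the other strings. The Lamc1 window held none of the 3. Among 33469 promoter windows of this length, 18.1% held GGGCGG, 13.0% held CCAAT and 3.99% held CCCTCCCC, so a single match is common. The build of the array's annotation was an earlier one, and no probe was placed on these coordinates. Promoters of Lamb2 and Nid2 were not among the sequences used here.

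The level of each probe is its processed intensity divided by the array's 75th percentile, and a ratio is the quotient of these levels on 2 arrays. The level of one probe cannot be compared with that of another. Between 56.6% and 59.7% of the spots that are not controls were well above background by the scanner software, and no spot was saturated. The software's own error of an intensity was at most 11.2% for every member probe well above background. Replicate spots within an array gave a ratio a spread of 0.07 in log2. In 1895 genes, 2 or more probes were well above background on all arrays. Log2 ratios to MSCs of their 2 brightest probes lay a median of 0.28 (COS1NR) and 0.31 (MFH1NR) apart. Pairs with a dim probe, as for Col4a1, are left out of this gap. Both sarcoma arrays lay on 1 slide and the MSC array on another, so in ratios to MSCs the slide and the cell type cannot be told apart.

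The cell type labels were set against markers on the same arrays. Of the 10 mesenchymal markers, 10 were well above background in MSCs, 8 in COS1NR and 9 in MFH1NR. Osteoblast markers were well above background for 5, 4 and 5 of 7 genes in the same order, and Sp7, a defining osteoblast factor, was so in MFH1NR only. The mesenchymal markers had a summed level of 1300.3, 211 and 344, and the osteoblast markers one of 75.6, 30.8 and 153. Of the latter, Spp1 alone made up 61.4, 28.8 and 150.1, while Alpl, Ibsp, Bglap and Dmp1 were each highest in MSCs. Macrophage markers were well above background for 8 of 8 genes in MSCs against 5 in COS1NR and 4 in MFH1NR, and their summed level was 87.6, 8.91 and 4.23. Markers of smooth muscle cells and pericytes, which make basement membrane, had a summed level of 183, 1.96 and 6.84 on the arrays of MSCs, COS1NR and MFH1NR, with 7, 4 and 4 of 7 well above background. Endothelial markers summed to 1.12, 0.213 and 0.138, with 4, 2 and 1 of 7 well above background, and Pecam1, Tek and Emcn were not so on any array. Adipocyte markers summed to 0.887, 30.9 and 0.0595, with 3, 3 and 0 of 5 well above background. MSCs had the highest sum for every list but those of adipocytes and, through Spp1, osteoblasts, and such sums are led by the brightest probes. The part of other cell types in the ratios of the laminin chains was not tested, and fewer cells of a type and less RNA per cell cannot be told apart.

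**Figure D1:**
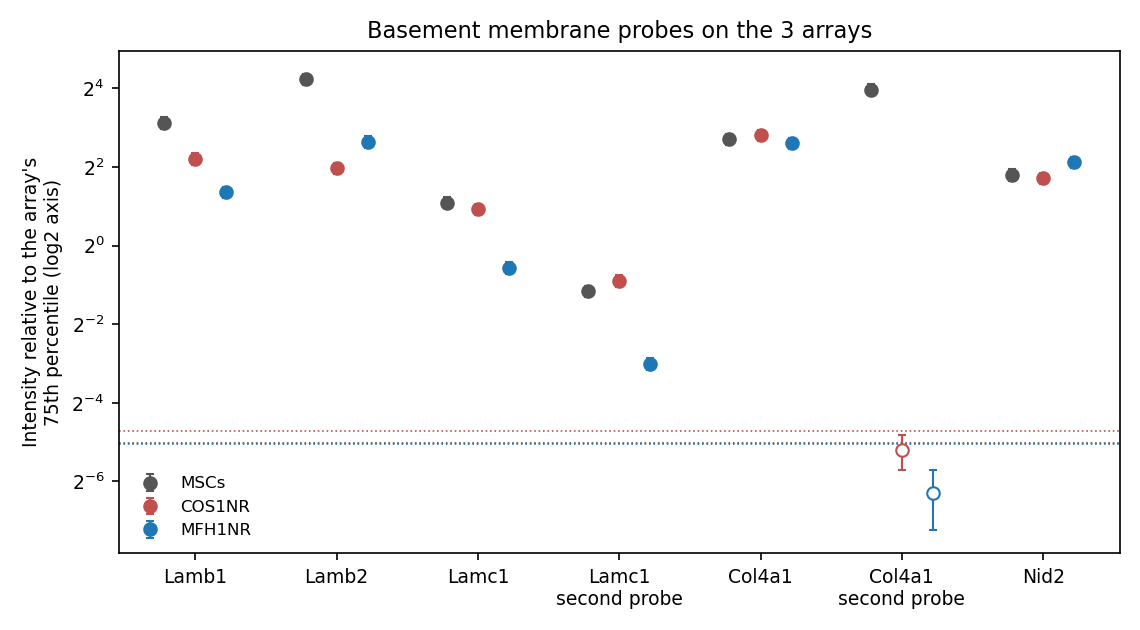
Level of each basement membrane probe (processed intensity relative to the array's 75th percentile, log2 axis) in MSCs, COS1NR and MFH1NR, with 1 spot per point and the software's error of that spot as bars. Open circles are not well above background and dotted lines mark the lowest level well above background on each array, which only the second Col4a1 probe fell below.

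The laminin chains were lower in MFH1NR than in MSCs, with log2 ratios of -1.77 for Lamb1, -1.59 for Lamb2 and -1.65 for Lamc1, which without scaling were -1.02, -0.84 and -0.90, so that only Lamb1 stayed past 2-fold. The summed level of every marker list but that of osteoblasts was likewise lower in MFH1NR than in MSCs, and all are read against the same MSC array. Lamb1, which encodes the beta1 chain, had levels of 8.74, 4.63 and 2.56 in MSCs, COS1NR and MFH1NR. Its ratio to MSCs was 0.530 in COS1NR, just short of 2-fold lower, and 0.293 in MFH1NR. With spike-in scaling the log2 ratio in COS1NR was -1.19, past 2-fold. MSCs had the highest value and MFH1NR the lowest.

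Lamb2, the beta2 chain that can take the place of beta1 and is prominent at the neuromuscular junction and in the kidney filter, had levels of 18.9, 3.93 and 6.25 in MSCs, COS1NR and MFH1NR. The ratios to MSCs were 0.208 in COS1NR and 0.331 in MFH1NR. By the probe that stood for each gene, Lamb2 was the only member at least 2-fold lower in both sarcomas, although without scaling its log2 ratio in MFH1NR was -0.84. COS1NR had the lowest value, unlike for Lamb1. In COS1NR, 8.88% of all genes had a lower ratio to MSCs than Lamb2.

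Lamc1, the gamma1 chain shared by most laminins, was measured by 2 probes. By the brighter one, its level was 2.14, 1.89 and 0.679 in MSCs, COS1NR and MFH1NR. By the other, it was 0.449, 0.537 and 0.125 in the same order. Both probes placed MFH1NR lowest, with ratios to MSCs of 0.318 and 0.278, the first of which was under 2-fold lower without scaling. COS1NR stood near MSCs, below by one probe, with a ratio of 0.886, and above by the other, with 1.20, so no direction can be given there.

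The beta chains did not keep a constant ratio to each other across the arrays. The log2 ratio of COS1NR to MSCs was 1.35 higher for Lamb1 than for Lamb2, a 2.55-fold gap between the chains. In MFH1NR, the chains differed by -0.18 only, a gap smaller than the usual one between 2 probes for the same gene. Between the sarcomas, which shared a slide, Lamb1 had a log2 ratio of MFH1NR to COS1NR of -0.86 and Lamb2 one of 0.67, a 2.88-fold gap. With spike-in scaling these were -0.06 and 1.46. Scaling by 1 factor per array moves all probes together and leaves such gaps as they are. Lamb2 and Lamc1, likewise, were 4.26-fold apart in their COS1NR ratio to MSCs and 1.04-fold in that of MFH1NR. The pairs with Lamc1 were chosen after the values were seen.

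Col4a1, the alpha1 chain of the widespread form of collagen IV, had 2 probes that gave opposite pictures. The probe that stood for the gene, A_44_P1070510, had intensities of 3849.7, 5406 and 6078 in MSCs, COS1NR and MFH1NR, or levels of 6.53, 6.99 and 6.11. Its ratios to MSCs were 1.07 and 0.935, so by this probe the arrays hardly differed. The second probe, A_44_P1021644, had an intensity of 9241 in MSCs, and 21.2 in COS1NR and 12.8 in MFH1NR, where it was not well above background. By this probe, Col4a1 was lower than in MSCs by at least 413-fold in COS1NR and by at least 519-fold in MFH1NR.

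Both probes carry the same RefSeq accession, and each was printed on a single spot with no outlier call. Of 2039 probes at least as bright in MSCs as the second one, 11 (0.539%) failed the background call in both sarcomas. Of 2219 genes with 2 or more named probes well above background in MSCs, 2 had a probe at least 16-fold lower in both sarcomas beside another within 2-fold in both, namely Col4a1 and C3h11orf96. This rule and these counts were set after the values were seen. Which part of the transcript each probe reads was not resolved here, and the level of collagen IV in the sarcomas rests on the choice of probe.

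Nid2, one of the nidogens that tie laminin to collagen IV, was within 2-fold between every pair of arrays. It had levels of 3.50, 3.30 and 4.35 in MSCs, COS1NR and MFH1NR, with ratios to MSCs of 0.942 and 1.24. The value in COS1NR differed from that in MSCs by about the spread of replicate spots, and that in MFH1NR by about the usual gap between 2 probes for the same gene. If arrays were not scaled, Nid2 lay above MSCs in both lines, at log2 ratios of 0.31 and 1.07. With spike-in scaling MFH1NR was above COS1NR by 1.19.

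**Figure D2:**
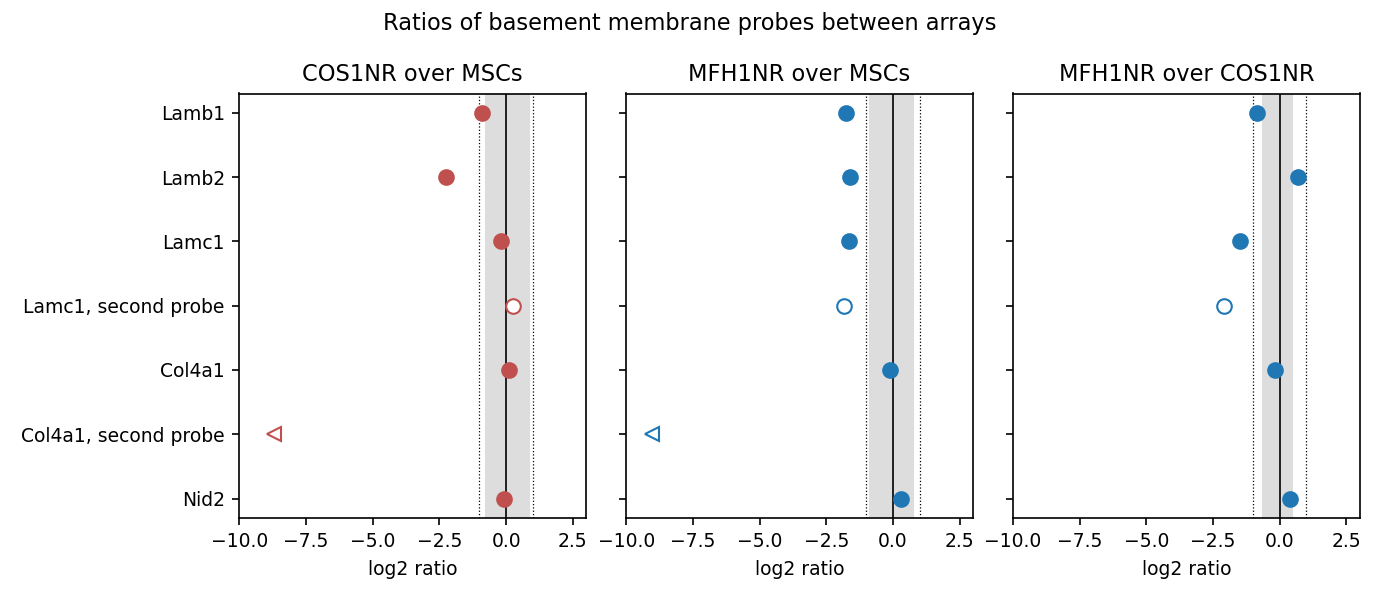
Log2 ratios of the member probes for COS1NR over MSCs, MFH1NR over MSCs and MFH1NR over COS1NR, with 1 array each. Filled points are the probe that stands for the gene, open ones the second probe, triangles are bounds, the grey band is the interquartile range of all genes and dotted lines mark 2-fold, and the laminin chains lie together at the left in MFH1NR while the second Col4a1 probe is far out in both ratios to MSCs.

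Counted by gene, 1 of 5 members was at least 2-fold lower in COS1NR than in MSCs, against 20.0% of all genes well above background on either array, and 0 were higher by as much, against 20.6%. The share of members lower in COS1NR is at that of all genes and is not a result about the members. It was 2 of 5 with spike-in scaling, when all probes were averaged and when the dimmest detected probe stood for a gene. In MFH1NR, 3 of 5 members were lower than in MSCs, against 21.6% of all genes, and 0 were higher, against 19.3%. Without scaling, 1 member (Lamb1, at a log2 ratio of -1.02) was lower and 1 (Nid2) higher, while the median of all genes moved to 0.79. With the mean of all probes or the dimmest one, 4 of 5 were lower. The median log2 ratio of the 5 members was -0.17 in COS1NR and -1.59 in MFH1NR, and that of all genes was 0.11 and 0.02. Without scaling the medians of the members were 0.22 and -0.84, so the one in COS1NR turned, and with the mean of all probes it was -0.92 in COS1NR. With 5 genes and 1 array a side, these counts describe the arrays and carry no test. Both counts set a sarcoma against the same MSC array.

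Between MFH1NR and COS1NR, 1 of 5 members was at least 2-fold lower in MFH1NR, against 15.1% of all genes, and 0 were higher, against 12.4%. With 5 members, these counts are near the shares of all genes and are not a result about the members. The lower member was Lamc1, with ratios of 0.359 and 0.232 by its 2 probes. With spike-in scaling its log2 ratio was -0.69, under 2-fold. With that scaling 0 members were lower and 2 higher. The median of the members was -0.19 beside -0.09 for all genes, and both turned without scaling, to 0.17 and 0.27, and with spike-in scaling, to 0.60 and 0.71.

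Genes related to the members were taken from lists of other basement membrane genes, receptors, enzymes and chaperones that modify or fold collagen, and matrix-degrading enzymes. Among 22 other basement membrane genes, 14 had a named probe and 12 were well above background on at least 1 array. In COS1NR, 3 were at least 2-fold lower than in MSCs and 2 higher of 12 with a ratio, near the 20.0% and 20.6% of all genes, so these counts say nothing particular of the list. In MFH1NR, 5 were lower and 3 higher of 10, beside 21.6% and 19.3% of all genes. The median log2 ratio was 0.30 in COS1NR and -1.52 in MFH1NR. Without scaling these were 0.69 and -0.77, and with spike-in scaling 0.03 and -1.01.

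Lama3, a laminin alpha chain typical of epithelia, had intensities of 46.2, 225 and 3080.0 in MSCs, COS1NR and MFH1NR, with log2 ratios to MSCs of 1.89 and 5.31. It was highest in MFH1NR and lowest in MSCs. Lamb3, an epithelial beta chain named after its values were seen, had log2 ratios of 0.51 in COS1NR and -2.20 in MFH1NR. The signs of both genes held under all 5 other scalings and background corrections tried, but the sizes did not, with Lama3 as low as 1.02 in COS1NR and 4.12 in MFH1NR and Lamb3 at -1.44 in MFH1NR.

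Epithelial markers were measured beside these chains. Of 6 genes, 4 were well above background in MSCs, and 1 in each sarcoma, with a summed level of 1.12, 0.184 and 0.165 in MSCs, COS1NR and MFH1NR, and Epcam and Krt19 were not well above background on any array. The marker well above background in the sarcomas was Cldn4, with ratios to MSCs of 2.84 and 2.33. The part of epithelial cells in the Lama3 and Lamb3 values was not tested.

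Sparc, a collagen-binding glycoprotein of bone and basement membranes, had intensities of 233890.0, 37886 and 31363 in MSCs, COS1NR and MFH1NR. Its log2 ratios to MSCs were -3.02 and -3.65. Col18a1, which encodes the precursor of endostatin and was also named after its values were seen, had log2 ratios of 0.91 in COS1NR and -5.48 in MFH1NR. Its second probe gave 0.76 and -5.84. Without scaling the first probe gave 1.31 and -4.72, past 2-fold in opposite directions, and Sparc was at -2.90 in MFH1NR.

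**Figure D3:**
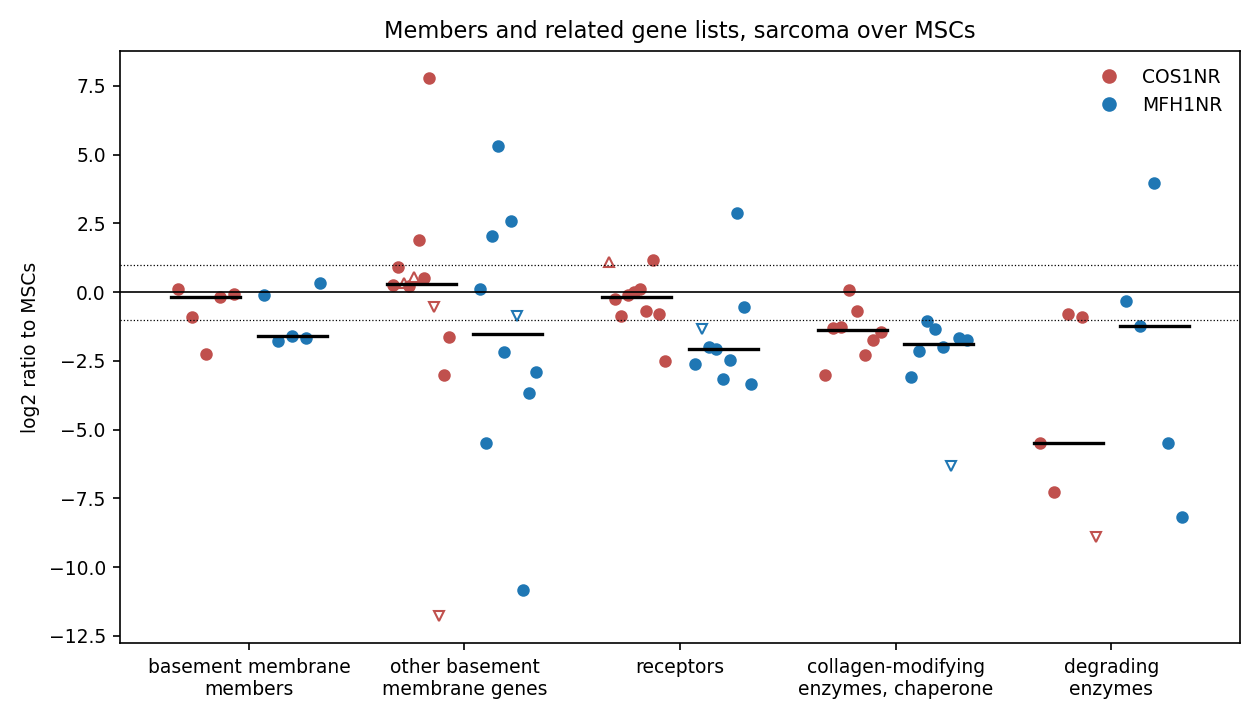
Log2 ratios to MSCs of the basement membrane members and of the genes of 4 related lists in COS1NR and MFH1NR, 1 point per gene with a ratio. Open triangles are bounds, black bars the medians and dotted lines 2-fold, and in MFH1NR the medians of the members and of all 4 lists lie below 0.

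Of 13 receptors, 10 had a named probe. In COS1NR, 1 lay 2-fold or more below MSCs and 2 lay above, beside 20.0% and 20.6% of all genes. The balance turned with the processing, to 3 below and 0 above with spike-in scaling and to 1 and 0 with the normexp background correction. In MFH1NR 7 were lower and 1 was higher of 9 with a ratio, beside 21.6% and 19.3% of all genes, and 6 were lower without scaling. The median log2 ratio was -0.19 in COS1NR, which turned to 0.20 without scaling, and -2.07 in MFH1NR. Integrin beta1 (Itgb1), the common partner of the laminin- and collagen-binding alpha chains, had log2 ratios of -0.68 and -2.47 in COS1NR and MFH1NR. Sdc4, a heparan sulfate proteoglycan of focal adhesions, had -2.51 and -3.34. Without scaling Itgb1 was at -1.72 and Sdc4 at -2.58 in MFH1NR.

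Itgb4, which pairs with integrin alpha6 in the hemidesmosome to bind laminin, was the only receptor at least 2-fold higher in both sarcomas. It had intensities of 1126, 3359 and 13861 in MSCs, COS1NR and MFH1NR. Its log2 ratios to MSCs were 1.18 and 2.87, so that MFH1NR had the highest value and MSCs the lowest. With spike-in scaling the ratio in COS1NR was 0.91, under 2-fold.

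Most enzymes and chaperones that make collagen were lower in the sarcomas than in MSCs. Of 10 listed, 8 had a probe. In COS1NR, 6 of 8 were at least 2-fold lower than in MSCs and 0 higher, and in MFH1NR 8 of 8 were lower, beside 20.0% and 21.6% of all genes. Without scaling these numbers were 4 and 5. Medians were -1.38 and -1.88. Loxl2, an oxidase that crosslinks collagen IV, had intensities of 24909, 4086 and 4934 in MSCs, COS1NR and MFH1NR, with ratios to MSCs of 0.125 and 0.117. The prolyl hydroxylase subunit P4ha1 had log2 ratios of -1.32 and -2.14, and the lysyl hydroxylase Plod3, which also adds sugars to collagen IV, had -1.75 and -1.67. Without scaling, P4ha1 in COS1NR and Plod3 in MFH1NR were under 2-fold, at -0.93 and -0.92. These enzymes also serve the fibrillar collagens.

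Among the degrading enzymes, 6 of 7 had a probe and 5 gave a ratio. Mmp2, a gelatinase that degrades collagen IV, had intensities of 38198, 323 and 27717 in MSCs, COS1NR and MFH1NR, with log2 ratios to MSCs of -7.28 and -1.22, the latter at -0.46 and under 2-fold if arrays were not scaled. Its membrane-bound activator Mmp14 had intensities of 41332, 1208 and 55144, and log2 ratios of -5.49 and -0.34, where leaving out the scaling turned the value in MFH1NR to 0.42. MFH1NR was thus above COS1NR by 6.06 for Mmp2 and 5.15 for Mmp14 on the log2 scale. Mmp9, the other gelatinase, was lower in MFH1NR than in COS1NR, at -4.57. In all, 3 of 5 were at least 2-fold lower than in MSCs in COS1NR with 0 higher, and in MFH1NR 3 were lower and 1 was higher, beside 20.0% and 21.6% of all genes lower and 20.6% and 19.3% higher. With spike-in scaling 5 of 5 were lower in COS1NR, and in MFH1NR 2 were lower with spike-in, quantile or no scaling. The medians were -5.49 and -1.22, and the one in MFH1NR was -0.46 without scaling.

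Lamb2 had the widest range of the members that were well above background on all arrays, with 2.26 in log2. Of 7931 other such genes, those with the most similar pattern over the 3 arrays were Jmjd8, Osbpl5, Or14j5b, Gmfg and Plekhg2. Their centred log2 levels lay within a distance of 0.07 to 0.11 of those of Lamb2. With 3 arrays, any pattern has many near neighbors, and the list is a description only.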

How the data were processed

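Cy3-labeled cRNA of 3 samples was hybridized to 1 Agilent whole rat genome array each. The intensity values deposited by the authors came from Agilent Feature Extraction, version 10.5.1.1 per the file headers and 9.1 per the submitters' processing notes. They are background-subtracted and detrended within an array, with dim values set to a surrogate, and not scaled between arrays. The table of the series equaled them on 3 of 3 arrays. The calls of the software (well above background, outlier, control, coded as other) were used as deposited.

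Control spots and outlier spots (187 to 217 per array) were left out, which left 40816 probes. Log2 intensities were taken relative to the 75th percentile. RefSeq accessions named 16745 probes through a GRCr8 gene table, and 10010 genes were well above background on at least 1 array. The probe with the highest mean log2 intensity stood for a gene. A probe well above background on only one of the arrays compared gave a bound, against the higher of its own level and the lowest level well above background there (0.0305 in MSCs, 0.0380 in COS1NR and 0.0302 in MFH1NR). Medians of lists hold such genes at their bound.

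No test was made, and counts are of genes past 2-fold. Named are the members, the 3 genes of each related list with the largest absolute mean of both log2 ratios to MSCs among those well above background on all arrays, and any gene of those related lists at least 2-fold apart from MSCs in opposite directions in the sarcomas, of which there were 0 with the 75th percentile as the scale. A gene that this rule names is not reported here. Members and lists were chosen with earlier results of these data known. Alternatives were 4 other scalings, the series table, other probes for a gene, a stricter or no treatment of dim probes, a 3-fold threshold and a normexp background correction. The counting step was run on simulated data with shifts far past 2-fold and little noise, which checks the code and not the precision of the counts. Python 3.11.15, numpy 2.4.6, pandas 2.3.3, matplotlib 3.10.9, R 4.3.3 and limma 3.58.1 (normexp) were used.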

Additional observations from a re-analysis of the deposited data

Results flagged for a closer look

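For Col4a1 and Nid2, the sarcomas lay on opposite sides of MSCs, which was not tested, with 1 array for each cell type. The log2 ratio to MSCs of Col4a1 was 0.19 lower in MFH1NR than in COS1NR, a difference of -0.19, by the probe that stood for the gene. That of Nid2 was 0.40 higher in MFH1NR. Neither gene was 2-fold apart between any pair of arrays by these probes, and the offsets of Col4a1 from MSCs, 0.10 and -0.10, are smaller than the usual gap between probes of a gene (0.28 and 0.31). The opposite sides depend on the scaling. Without scaling both lines lay above MSCs, at 0.49 and 0.66 for Col4a1 and 0.31 and 1.07 for Nid2 (COS1NR first), as they did with median scaling, at 0.26 and 0.12, and 0.08 and 0.53. Spike-in scaling turned Col4a1 to -0.18 and 0.42. The second Col4a1 probe put both lines far below MSCs, at bounds of -8.69 and -9.02.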

How the results depend on the processing

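Counts of members were recomputed under 11 alternatives and log2 ratios of members under 10 of these, all but the 3-fold threshold. No ratio of a member at least 2-fold from 1 changed sign, and 57 of 66 counts stayed within 1.5 times the value given. These totals include the series table, which equals the intensities used, and the stricter or absent treatment of dim probes. None of those could change a member value, because the probes that stood for the members were well above background on all arrays. Without scaling, the members lower in MFH1NR than in MSCs numbered 1 and those higher 1, and 1 was higher in MFH1NR than in COS1NR. With 7 spike-in probes for scaling, 2 were lower in COS1NR than in MSCs, and in MFH1NR against COS1NR 0 were lower and 2 higher. With the mean of all probes, or the dimmest one, 2 were lower in COS1NR than in MSCs. At 3-fold, 0 were lower in MFH1NR than in COS1NR. Of 149 log2 ratios of single members, 14 changed sign, all of Col4a1, Lamc1 in COS1NR against MSCs and Nid2 in COS1NR against MSCs. Col4a1 ranged from -8.69 to 0.49 in COS1NR and from -9.02 to 0.66 in MFH1NR. The decreases of Lamb2 and Lamc1 in MFH1NR were under 2-fold without scaling, at -0.84 and -0.90, and that of Lamb1 stayed at -1.02 or lower. Scaling also moved all genes. Of the genes with a ratio (bounds that gave no fold over 1 left out), 20.1% were lower and 20.8% higher in COS1NR than in MSCs, and 21.6% and 19.3% in MFH1NR. Without scaling these were 15.1% and 33.2%, and 13.2% and 42.1%, with medians of 0.52 and 0.79. With spike-in scaling they were 25.03% and 14.5%, and 15.2% and 33.9%, with medians of -0.16 and 0.55. Between the sarcomas they were 7.17% lower and 35.3% higher in MFH1NR with spike-in scaling, against 15.2% and 12.5%. The planned normexp correction on mean spot signals was not run, and median spot signals were used instead, a choice made after seeing the data. Precision is limited by the number of arrays, 1 for each cell type.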
